A study of Mus musculus with 9 samples.

Results

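The 32 genes described here take part in the integrated stress response and in the synthesis of serine, one-carbon units and other amino acids. They were found by symbol among the 30232 gene rows of the count table, alone or in a row merged with an overlapping transcript, and each had 1 row. Of the 32 rows, 31 passed the filter on low counts and were tested. Slc7a11, the cystine transporter subunit, did not pass: its merged row held 0 to 7 counts in each of the 9 libraries, around the floor of 3 counts. The rows of Slc7a11, Aars and Cars are merged with another transcript, so reads of either name cannot be separated there.

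When a cell lacks amino acids, carries misfolded protein in the endoplasmic reticulum or meets other stresses, kinases phosphorylate the initiation factor eIF2. Most translation then slows while the transcription factor ATF4 is translated more, and ATF4 raises genes for amino acid uptake, amino acid synthesis and tRNA charging. The amount of Atf4 transcript is therefore only part of the control of ATF4, and protein was not measured here. Serine made from glycolytic carbon, and its conversion to glycine, feed folate-bound one-carbon units into nucleotide synthesis. Mouse embryonic stem cells are known for a high demand for such units.

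The 9 libraries, made by 3' counting of poly(A)+ RNA, came from mouse embryonic stem cells: 4 were wild-type and 5 carried a Gzf1 knockout. Gzf1 encodes a zinc finger protein that the title of the series places at the imprinted Dlk1-Dio3 cluster. The RGM line, sequenced in run2, gave replicates 1 and 2 of each genotype. In run1 the V6.5 line gave wild-type replicate 3 with knockout replicates 3, 4 and 5, and a Cas9-GFP line gave wild-type replicate 4. All were grown on irradiated mouse fibroblast feeders in serum medium with LIF, L-glutamine and non-essential amino acids, and feeders were depleted before harvest. The labels name neither the edited position nor any clone, and nothing in them ties a library to its own culture. The p-values therefore reflect the spread among the libraries alone, and that spread may be technical. Run and cell line coincide for RGM cells and cannot be told apart.

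Library totals were 2568489 to 3704162 counts in RGM cells and 4872127 to 7072697 in run1. Gzf1 itself was at 28.6, 30.0, 8.11 and 18.7 CPM (counts relative to the scaled total of each library) in wild-type replicates 1 to 4 and at 5.45, 14.2, 1.66, 9.40 and 5.24 CPM in knockout replicates 1 to 5. The genotypes overlapped, since wild-type replicate 3 lay below knockout replicates 2 and 4, but within RGM cells they did not. The log2 fold change, knockout minus wild type with run as a term, was -1.45 (SE 0.42, edgeR, unadjusted p = 0.0048, adjusted p = 0.9998). It was -1.60 (SE 0.66) within RGM cells and -1.33 (SE 0.58) within run1. A 3' count need not report an edit elsewhere in the gene, so this level is no direct check of the deletion. Of 10 embryonic stem cell markers all were detected in every library, with summed levels of 5896 to 6868 CPM in RGM and 5671 to 7428 CPM in V6.5 cells. Single markers differed: 1 was higher and 2 were lower in RGM cells (edgeR, adjusted p under 0.05). That is 30.0% of the list, against 40.3% of all tested genes, and the 10 log2 differences ran from -1.46 to 3.26. In bulk RNA, fewer cells of a type and less RNA per cell cannot be told apart.

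ATF4 binds as a dimer with C/EBP proteins to a composite element whose core can be written TGATGNAA. The RefSeq promoter table (GRCm38.p6, 250 bases before to 50 after each annotated start) held 27 of the 32 genes, without Eif4ebp1, Slc7a5, Slc7a3, Cars and Nars. These letters were searched on both strands. They were present in the windows of 9 of the 27 genes (33.3%) and of 4.51% of the 27025 genes in the table. The genes were listed for their part in the response that ATF4 drives and in linked synthesis. The higher share is therefore no independent result. The 9 genes were Nupr1, Trib3, Chac1, Herpud1, Asns, Pycr1, Pck2, Slc7a11 and Aars. The stretches below lie before the annotated start and were taken without regard to how far the genes differed between libraries. The stretches are written 5' to 3' on the strand of the gene, and capitals mark the match. Slc7a11 carried the core once in each orientation, and the match of Trib3 lay after the start and is not shown. No stretch is printed for Aars. Annotated exons of GENCODE overlap the Asns and Nupr1 stretches.
Chac1 (chr2:119351032-119351071, plus strand): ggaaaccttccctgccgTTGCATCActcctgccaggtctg
Herpud1 (chr8:94386300-94386339, plus strand): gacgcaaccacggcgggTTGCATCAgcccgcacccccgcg
Nupr1 (chr7:126625562-126625591, minus strand): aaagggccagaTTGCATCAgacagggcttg
Asns (chr6:7693214-7693243, minus strand): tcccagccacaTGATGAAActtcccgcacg
Pycr1 (chr11:120643829-120643868, minus strand): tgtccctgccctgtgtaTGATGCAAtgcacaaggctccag
Pck2 (chr14:55540146-55540185, plus strand): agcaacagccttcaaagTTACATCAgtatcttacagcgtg
Slc7a11 (chr3:50443647-50443686, minus strand): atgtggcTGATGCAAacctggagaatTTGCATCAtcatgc
A match describes the letters in the window and is not evidence of binding.

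**Figure D1:**
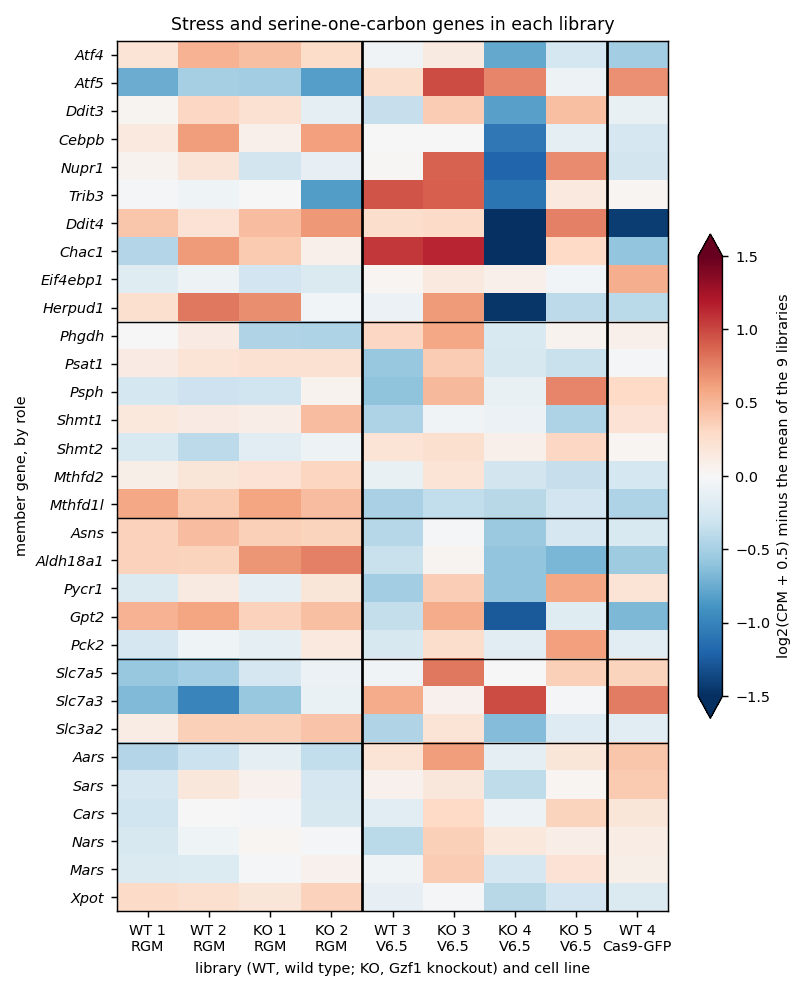
Level of the 31 tested genes in each library, as log2(CPM + 0.5) minus the mean of the 9 libraries (colour, cut at 1.5 either way), with genes grouped by role and libraries by cell line. Knockout replicate 4 is the lowest for most regulators and feedback genes, and the RGM libraries are alike for Asns (711 to 778 CPM).

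The first comparison asked whether the loss of Gzf1 changed the stress and serine genes. In all 9 libraries, with run as a term, 0 of the 31 tested genes passed the threshold (edgeR's quasi-likelihood test, adjusted p under 0.05), against 0.0316% of all 12645 tested genes. At an unadjusted p under 0.05 there were 0 of the 31 genes, against 2.32% of all genes. DESeq2 and limma voom also called 0 of the 31, with 0 and 3 of them at an unadjusted p under 0.05. The run term pools the Cas9-GFP wild-type library with V6.5 cells. With cell line in its place edgeR also called 0 of the 31. In that fit 3 of the 31 had an unadjusted p under 0.05, against 264 of all 12645 genes. All 32 genes had overlapping genotypes, while 0.443% of all tested genes did not overlap. The log2 fold changes, knockout minus wild type, ran from -0.34 to 0.35 with a median of 0.10, and 23 were positive and 8 negative. Over all tested genes the median was 0.01, with 6656 positive and 5989 negative. A p above the threshold does not show that the genotypes were alike.

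Atf4, the central transcription factor of the response (chromosome 15, 80255184 to 80257541, GRCm38), was at 971, 1210, 815 and 587 CPM in wild-type replicates 1 to 4. The knockout libraries held 1153, 1022, 928, 494 and 702 CPM in replicates 1 to 5. The high values of both genotypes were those of RGM cells and the low ones those of run1. The log2 fold change was 0.01 (SE 0.17, adjusted p = 0.9998), with 0.00 (SE 0.26) within RGM cells and 0.01 (SE 0.24) within run1. Among the other regulators and feedback genes, the log2 fold change was -0.34 (SE 0.35) for Trib3, a pseudokinase that restrains the response. Ddit4, an inhibitor of mTORC1 signalling, had 0.35 (SE 0.44).

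The 4 genes with the smallest unadjusted p were Pck2, Slc7a5, Nars and Psph, all at an adjusted p of 0.9998. Pck2, the mitochondrial PEP carboxykinase, had 57.7, 65.9, 58.4 and 61.6 CPM in wild-type replicates 1 to 4, and the knockout libraries reached 62.1, 76.6, 83.0, 61.8 and 106 CPM. Its log2 fold change was 0.34 (SE 0.17, unadjusted p = 0.058), with 0.17 (SE 0.25) in RGM cells and 0.48 (SE 0.23) in run1. The highest value was that of knockout replicate 5, and knockout replicates 1 and 4 lay within the wild-type range. Within V6.5 cells every knockout library lay above the single wild-type library, while in RGM cells the genotypes overlapped.

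Slc7a5, the light chain of the large neutral amino acid transporter, was at 178, 185, 253 and 331 CPM in wild-type libraries. Its knockout values were 221, 247, 456, 263 and 339 CPM, so that the log2 fold change came to 0.31 (SE 0.15, unadjusted p = 0.059). Within RGM cells both knockout libraries lay above both wild-type ones (0.37, SE 0.24), while in run1 knockout replicate 4 lay between the wild-type libraries (0.27, SE 0.22). The upper of these was the Cas9-GFP library, and all V6.5 knockout libraries lay above the single V6.5 wild-type library. Nars, the cytosolic asparaginyl-tRNA synthetase, had 334, 378, 298 and 428 CPM without the knockout, compared with 403, 389, 507, 442 and 423 CPM with it. The log2 fold change was 0.25 (SE 0.13, unadjusted p = 0.071). Wild-type replicate 4, of Cas9-GFP cells, lay above 3 of the knockout libraries. Within RGM cells and within V6.5 cells, the latter with a single wild-type library, every knockout library lay above every wild-type one. Psph, the phosphatase of the last step of serine synthesis, had 128, 124, 101 and 189 CPM in the 4 wild-type libraries. The 5 knockout libraries held 125, 159, 216, 142 and 255 CPM. Its log2 fold change was 0.35 (SE 0.20, unadjusted p = 0.11), with only the V6.5 knockout replicates 3 and 5 above the wild-type range. The top of that range was the Cas9-GFP library. All V6.5 knockout libraries lay above the single V6.5 wild-type library for Psph, while in RGM cells the genotypes overlapped.

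The knockout effect itself did not differ detectably between RGM cells and run1. For this difference 0 of the 31 genes passed the threshold in edgeR, as did 0% of all genes. At an unadjusted p under 0.05 there were 0 of the 31 genes and 1.44% of all genes. DESeq2 and limma voom called 0 of the 31 as well, with 0 and 1 of them at an unadjusted p under 0.05. Slc7a3, a cationic amino acid transporter, shifted by 0.50 (log2, SE 0.31) in RGM cells and by -0.25 (SE 0.27) in run1 (difference, unadjusted p = 0.095). Nupr1, a stress-induced chromatin protein, had -0.32 (SE 0.48) and 0.51 (SE 0.43), with an unadjusted p of 0.22. Both are named after their values were seen.

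**Figure D2:**
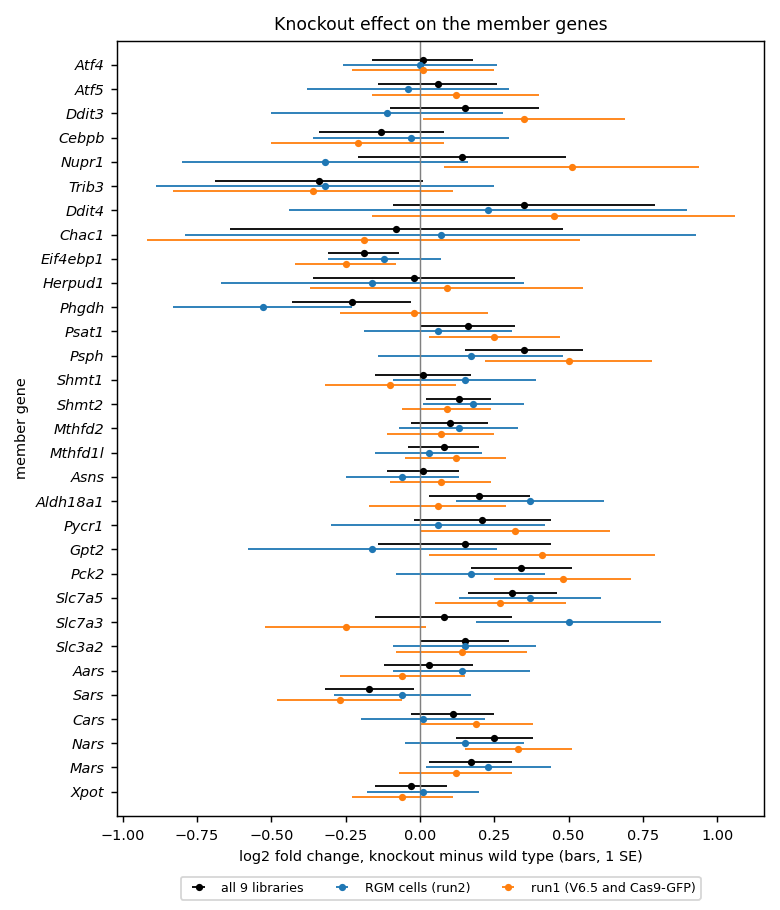
Log2 fold change, knockout minus wild type, of the 31 tested genes in all libraries, within RGM cells and within run1, with bars of 1 SE. The values in all libraries lie between -0.34 and 0.35.

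The second comparison set RGM against V6.5 cells, 4 libraries each, with genotype as a covariate and the Cas9-GFP library at a level of its own. Here 12 of the 31 tested genes differed (edgeR, adjusted p under 0.05), 7 higher and 5 lower in RGM cells. At an unadjusted p under 0.05 there were 17 of the 31 genes and 49.1% of all genes. The share past the threshold, 38.7%, was close to the 40.3% of all tested genes that differed, of which 19.8% of tested genes were higher and 20.5% lower. The lines did not overlap in 12 of the 31 genes, 7 with RGM cells above and 5 below, against 41.1% of all genes, 20.6% above and 20.6% below. These were not all the same genes as those past the threshold. Cebpb (above) and Eif4ebp1 (below) did not overlap but did not pass, while Slc3a2 and Aars passed with overlap. The median log2 difference was -0.04 for the 31 genes and -0.02 for all. Of the genes past the threshold, those higher in RGM cells were Atf4, Mthfd1l, Shmt1, Asns, Aldh18a1, Slc3a2 and Xpot. Those lower were Atf5, Shmt2, Slc7a5, Slc7a3 and Aars.

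Among regulators 2 of 10 differed. Atf4 was at 971, 1210, 1153 and 1022 CPM in RGM cells and at 815, 928, 494 and 702 CPM in V6.5 cells, 1.46-fold higher (log2 difference 0.55, SE 0.18, adjusted p = 0.028). The lines did not overlap, and V6.5 knockout replicate 4 was the lowest. Atf4 no longer passed in edgeR when any 1 of 4 libraries was left out, namely wild-type replicate 2 (adjusted p = 0.067), wild-type replicate 3 (0.082), knockout replicate 1 (0.12) and knockout replicate 2 (0.064). Atf5, a related factor that is also translated under stress, lay the other way, at 25.9, 30.8, 30.4 and 24.5 CPM in RGM and 52.6, 86.3, 72.9 and 41.6 CPM in V6.5 cells. It was 2.20-fold lower in RGM cells (log2 difference -1.14, SE 0.23, adjusted p = 0.0024) with no overlap, and the Cas9-GFP library was at 70.5 CPM. Cebpb, a C/EBP partner of ATF4, had a log2 difference of 0.59 (SE 0.24, adjusted p = 0.062) and Eif4ebp1, a translational repressor, one of -0.26 (SE 0.12, adjusted p = 0.091). The stress-death factor Ddit3 (0.16, SE 0.29) and Chac1, which degrades glutathione (-0.36, SE 0.54), had large errors. The annotated ends of Ddit3 and Mars overlap on chromosome 10, and no source used here says how strand was handled.

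In the serine and one-carbon group 3 of 7 enzymes differed. Mthfd1l, the mitochondrial formate-releasing ligase (chromosome 10, 3973118 to 4167081), was at 128, 113, 129 and 118 CPM in RGM cells and 60.9, 66.4, 63.9 and 70.2 CPM in V6.5 cells. It was 1.89-fold higher in RGM cells (log2 difference 0.92, SE 0.13, adjusted p = 2.2e-04), and each line was tight, with SDs of 7.77 and 3.93 CPM (n = 4). The isoenzymes of serine hydroxymethyltransferase differed in opposite directions. Cytosolic Shmt1 was at 132, 128, 126 and 163 CPM in RGM and 85.7, 114, 111 and 85.6 CPM in V6.5 cells, higher in RGM cells (log2 difference 0.52, SE 0.15, adjusted p = 0.013). Mitochondrial Shmt2 was at 237, 211, 248 and 262 CPM and 320, 328, 293 and 343 CPM, lower in RGM cells (log2 difference -0.40, SE 0.12, adjusted p = 0.018). Neither gene overlapped between the lines, and each missed the threshold in 5 of 18 alternative fits.

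The ratio of Shmt2 to Shmt1 counts was 1.80, 1.65, 1.97 and 1.61 in RGM cells and 3.73, 2.89, 2.64 and 4.01 in V6.5 cells. The Cas9-GFP library had 2.06, with Shmt1 at 137 CPM. This ratio was formed after the values were seen and is given without a test. The enzymes of serine synthesis did not pass: Phgdh, the first enzyme, had a log2 difference of -0.50 (SE 0.21, adjusted p = 0.080). Psat1, the transaminase, had 0.42 (SE 0.18, adjusted p = 0.072) and Psph -0.23 (SE 0.22, adjusted p = 0.42). Mthfd2, the mitochondrial folate dehydrogenase, had 0.33 (SE 0.14, adjusted p = 0.083).

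Of the 5 other enzymes 2 differed. Asns, which makes asparagine, was at 717, 778, 719 and 711 CPM in RGM and 417, 553, 382 and 473 CPM in V6.5 cells, 1.61-fold higher (log2 difference 0.69, SE 0.14, adjusted p = 0.0021). Aldh18a1, the first enzyme of proline synthesis from glutamate, was between 64.3 and 86.4 CPM in RGM cells and at 40.4, 52.3, 33.6 and 31.6 CPM in V6.5 cells, 1.92-fold higher (log2 difference 0.94, SE 0.19, adjusted p = 0.0020). Neither overlapped, and the Cas9-GFP library, at 480 and 34.9 CPM, lay with V6.5 cells for both. Pycr1, the last enzyme of proline synthesis, had a log2 difference of 0.06 (SE 0.25, adjusted p = 0.88). Gpt2, the mitochondrial alanine transaminase, had 0.66 (SE 0.30, adjusted p = 0.10).

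All 3 tested transporters differed, in unlike directions. Slc3a2 encodes the heavy chain that carries Slc7a5 to the cell surface. It was at 559, 659, 663 and 693 CPM in RGM and 376, 596, 328 and 452 CPM in V6.5 cells, higher in RGM cells (log2 difference 0.61, SE 0.17, adjusted p = 0.013), with V6.5 knockout replicate 3 inside the RGM range. Slc7a5, its light chain partner, was at 178, 185, 221 and 247 CPM and 253, 456, 263 and 339 CPM, lower in RGM cells (log2 difference -0.55, SE 0.16, adjusted p = 0.018) without overlap. The ratio of Slc3a2 to Slc7a5 counts was 2.80 to 3.57 over the RGM libraries, 1.25 to 1.48 over the V6.5 libraries and 1.38 in the Cas9-GFP library. It was formed after the values were seen and has no test. Slc7a3 was at 184, 146, 196 and 271 CPM and 428, 304, 573 and 286 CPM, 1.95-fold lower in RGM cells (log2 difference -0.97, SE 0.23, adjusted p = 0.0058), also without overlap.

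Among genes of tRNA charging and export 2 of 6 differed. Xpot, the nuclear export receptor of tRNA, was at 154, 150, 144 and 161 CPM in RGM and 116, 125, 95.0 and 104 CPM in V6.5 cells, higher in RGM cells (log2 difference 0.46, SE 0.13, adjusted p = 0.016). Aars, the alanyl-tRNA synthetase, was at 240, 260, 296 and 253 CPM and 376, 503, 296 and 369 CPM, lower in RGM cells (log2 difference -0.53, SE 0.16, adjusted p = 0.019). Xpot did not overlap, while the lowest V6.5 library for Aars, knockout replicate 4, met the highest RGM library. The other synthetases, Sars, Cars, Nars and Mars, had log2 differences between -0.20 and -0.04.

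The V6.5 side of this comparison has a single wild-type library. Without it (wild-type replicate 3), 4 of the 31 genes passed (12.9%), against 23.6% of all genes tested in that fit. Without knockout replicate 2, 7 passed (22.6%, against 29.6% of all). Within knockout cells alone, RGM against V6.5, 5 passed (16.1%, against 25.0% of all). In these fits the share among the 31 genes was lower than among all genes. Mthfd1l, Aldh18a1, Asns and Atf5 passed in all 18 alternative fits. Atf4 missed the threshold in 6 of them, Shmt1, Shmt2 and Slc7a5 in 5 each and Aars in 4. Slc3a2 and Xpot missed it in 3 each and Slc7a3 in 2.

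Fibroblast markers were also higher in RGM cells, 12 of the 18 tested higher (66.7%) and 0 lower, against 19.8% and 20.5% of all tested genes. The summed level of all 20 listed markers was 1105 to 2083 CPM in RGM and 711 to 1087 CPM in V6.5 libraries, with 0 markers absent from all libraries and Lum and Fap at 0 counts in at least 1. Col3a1, a fibrillar collagen, had a log2 difference of 1.95 (SE 0.25, adjusted p = 1.1e-04). The part of feeder cells in the line differences was not tested.

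**Figure D3:**
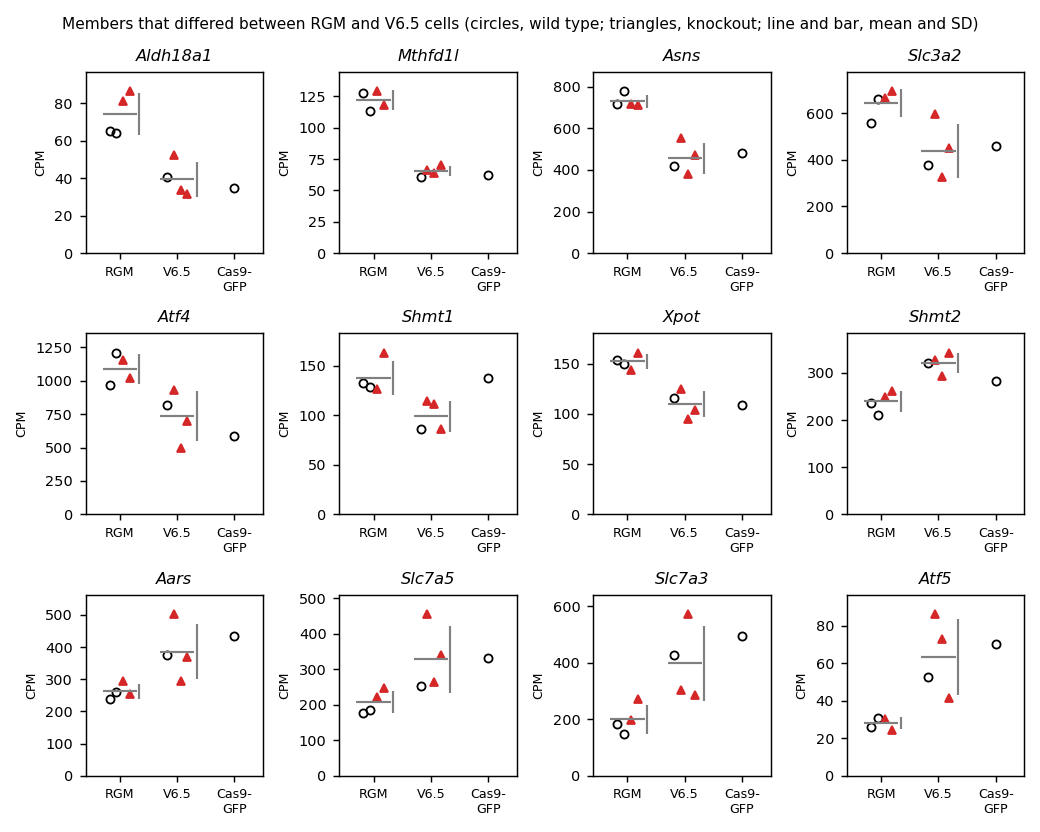
CPM in each library of the 12 genes that differed between RGM and V6.5 cells, by cell line (circles, wild type; triangles, knockout; grey line and bar, mean and SD of 4 libraries). The genes run from Aldh18a1, highest in RGM relative to V6.5 cells (log2 difference 0.94), to Atf5, lowest (-1.14).

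Other genes of the pathway, on lists chosen by function, differed between the lines in both directions. Of 15 genes for eIF2 kinases, eIF2B subunits and the eIF2 phosphatase, 4 were higher and 4 lower in RGM cells. That is 53.3% of the list, against 40.3% of all tested genes, 19.8% higher and 20.5% lower. Ppp1r15a, the stress-induced subunit that directs eIF2 dephosphorylation, was at 119 ± 8.42 CPM in RGM and 55.4 ± 4.06 CPM in V6.5 cells (SD, n = 4; log2 difference 1.09, SE 0.14, adjusted p = 9.8e-05). Eif2ak1, the heme-regulated kinase, was lower (-0.85, SE 0.16, adjusted p = 0.0015), as was the eIF2B subunit Eif2b2, at 57.2 ± 3.11 and 111 ± 18.1 CPM (SD, n = 4; adjusted p = 1.9e-04).

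Of 24 further ATF4 targets 6 were higher and 4 lower (41.7%, against 40.3% of all tested genes). The arginine transporter Slc7a1 was lower in RGM cells (-1.32, SE 0.15, adjusted p = 6.6e-05). Cbs, which opens transsulfuration (1.33, SE 0.21, adjusted p = 4.2e-04), and the co-chaperone Dnajb9 (0.89, SE 0.15, adjusted p = 5.9e-04) were higher. Of 16 further cytosolic tRNA synthetases 31.2% differed, against 40.3% of all tested genes. Here 1 was higher, Iars (0.41, SE 0.12, adjusted p = 0.020), and 4 were lower, among them Hars (-0.82, SE 0.15, adjusted p = 0.0011) and Wars (-0.50, SE 0.14, adjusted p = 0.011).

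Among 23 further folate and one-carbon genes 7 were higher and 7 lower (60.9%, against 40.3% of all tested genes). Gldc, the decarboxylase of the glycine cleavage system, was at 187 ± 10.8 CPM in RGM and 43.6 ± 11.3 CPM in V6.5 cells (SD, n = 4; log2 difference 2.20, SE 0.18, adjusted p = 5.8e-06). Tyms, thymidylate synthase (-0.80, SE 0.15, adjusted p = 0.0011), and Aldh1l2, a mitochondrial formyl-folate dehydrogenase at few CPM (-2.25, SE 0.48, adjusted p = 0.0030), were lower. Of 20 genes on the unfolded protein response list, 4 were higher and 3 lower (35.0%, against 40.3% of all tested genes). They were led by Derl3 (1.65, SE 0.25, adjusted p = 4.0e-04), Hyou1 (1.25, SE 0.19, adjusted p = 4.3e-04) and Dnajb9, which stands on the list of ATF4 targets too. By genotype 0 of the 96 tested genes on these 5 lists passed in edgeR, DESeq2 or limma voom, and 2, 2 and 3 had an unadjusted p under 0.05.

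The stress genes also varied between libraries of the same line and genotype. The V6.5 knockout libraries, replicates 3, 4 and 5, are the only group of 3. Of the 31 genes 22 were highest of the 3 in replicate 3, against 30.0% of all tested genes, and 23 were lowest in replicate 4, against 36.6% of all. Replicate 3 exceeded replicate 4 by more than 2-fold in 8 of the 31 genes, against 5.84% of all. Counts beyond 2-fold between these libraries, here and below, are of this direction alone. The order replicate 3 over 5 over 4 was met by 15 genes, against 16.3% of all. The median log2 difference, replicate 3 minus replicate 4, was 0.63 for the 31 genes and 0.00 for all. The pair of libraries, the order and the direction were chosen after the values were seen, so the gap to all genes is partly built in. These are single libraries, so the differences are a description without a test.

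Of the groups by role, the regulators and feedback genes differed most between replicates 3 and 4, with a median log2 difference of 1.56 and 7 of 10 beyond 2-fold. Chac1 was at 47.6, 3.13 and 26.2 CPM in replicates 3, 4 and 5, from 344, 15 and 160 counts, a 15.2-fold difference between replicates 3 and 4. Trib3 was at 40.6, 9.82 and 23.9 CPM, and Nupr1 at 171, 40.3 and 152 CPM. Replicate 4 stood low for each while the other two varied less. Herpud1, a component of degradation at the endoplasmic reticulum, was at 75.2, 17.1 and 36.4 CPM. Ddit4 was at 245, 63.9 and 340 CPM, and Ddit3 at 27.7, 11.9 and 29.3 CPM. Cebpb was at 58.9, 27.8 and 53.1 CPM. Atf4 itself differed less, 1.88-fold between replicates 3 and 4, and Eif4ebp1 1.06-fold.

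Biosynthetic genes differed less between replicates 3 and 4. Of the 7 serine and one-carbon enzymes 0 exceeded 2-fold, with Psat1 at 609, 395 and 370 CPM and Mthfd1l at 66.4, 63.9 and 70.2 CPM. Among the other enzymes 1 of 5 did, Gpt2 at 90.0, 25.1 and 53.8 CPM. Pycr1, at 111, 56.6 and 128 CPM, was more than 2-fold higher in replicate 5 than in replicate 4. Slc7a3 ran the other way, at 304, 573 and 286 CPM, with replicate 4 the highest. The 6 genes of tRNA charging and export had a median log2 difference of 0.47, with 0 beyond 2-fold. The 8 tested genes with the TGATGNAA core in the promoter window had a median of 1.48, and the 18 genes whose window lacked it 0.62, with 4 genes beyond 2-fold in each. The 4 with the core were Nupr1, Trib3, Chac1 and Herpud1, all regulators and feedback genes (2.00 to 3.73). Asns, Pycr1, Pck2 and Aars, which also carry it, had 0.53, 0.97, 0.42 and 0.77. The part of role in these medians was not tested.

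Among the other lists the further ATF4 targets had the most genes beyond 2-fold, 9 of 24, with a median of 0.40. Slc1a4, a transporter of serine and other neutral amino acids, was at 32.8, 6.89 and 19.0 CPM in replicates 3, 4 and 5, and the glycine transporter Slc6a9 at 14.1, 2.71 and 6.72 CPM, both named after their values were seen. Of the 16 further tRNA synthetases 0 exceeded 2-fold, with a median of 0.37, though 14 were lowest in replicate 4. For the 23 further folate genes the median was 0.11, with 1 beyond 2-fold. On the unfolded protein response list, which shares Dnajb9 with the ATF4 targets, 0 of 20 genes were more than 2-fold higher in replicate 3, with a median of -0.26. For the 15 eIF2 kinase and eIF2B genes the median was -0.02 and for embryonic stem cell markers -0.28. In either list 0 genes were more than 2-fold higher in replicate 3. Impact, on the eIF2 list, lay beyond 2-fold the other way, at 97.2 CPM in replicate 3 and 198 CPM in replicate 4.

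Depth moved with this order: replicate 3 had 7007297 counts, replicate 5 had 6073914 and replicate 4 had 4872127. With every library thinned to the smallest total, 23 of the 31 genes were highest in replicate 3, 24 lowest in replicate 4 and 9 beyond 2-fold, against 7.20% of all genes. Summed fibroblast markers were 1087, 778 and 711 CPM in replicates 3, 4 and 5, with replicate 4 between the others. Of the 18 tested fibroblast markers 13 were highest in replicate 3, against 30.0% of all tested genes, and 4 lowest in replicate 4, against 36.6%. Their median log2 difference, replicate 3 minus replicate 4, was 0.13, with 0 beyond 2-fold. Their part in the order of the libraries was not tested.

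The wild-type libraries of run1, 1 of V6.5 and 1 of Cas9-GFP cells, were single libraries as well. Of the 31 genes 13 were higher and 18 lower in the V6.5 library, with a median log2 difference of -0.14. More than 2-fold higher in V6.5 were 2 genes (6.45%), against 3.29% of all tested genes, and 0 were more than 2-fold lower, against 2.25% of all. Both were regulators, a group with 7 of 10 higher and 3 lower. Chac1 was at 45.1 CPM in the V6.5 and 13.9 CPM in the Cas9-GFP library, and Ddit4 at 242 and 74.3 CPM. Trib3 was at 42.0 and 21.9 CPM, while Ddit3 was at 16.6 and 19.6 CPM, Atf5 at 52.6 and 70.5 CPM and Eif4ebp1 at 1254 and 1788 CPM. The V6.5 wild-type library lay near V6.5 knockout replicate 3 for Chac1 and Trib3. Line and library cannot be told apart here, since each line has 1 wild-type library.

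RGM libraries were more alike. The ratio of the highest to the lowest of the 4 RGM libraries had a median of 1.28 over the 31 genes and of 1.34 over all genes, on the scale of CPM + 0.5. Over the 4 V6.5 libraries it was 1.81 and 1.64. It was wider in V6.5 than in RGM cells for 29 of the 31 genes (93.5%), as for 75.0% of all. For regulators and feedback genes the medians were 1.37 in RGM and 3.26 in V6.5 cells. After line and genotype were taken out, the 465 pairs of the 31 genes had a median Pearson r of 0.55, and 83.9% were positive. The Cas9-GFP library, the only one of its line, adds nothing to r once line is taken out, so r rests on the RGM and V6.5 libraries. All pairs of tested genes had a median of 0.00 and 50.0% positive. These correlations are descriptive, since all genes of a library share its depth and culture.

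**Figure D4:**
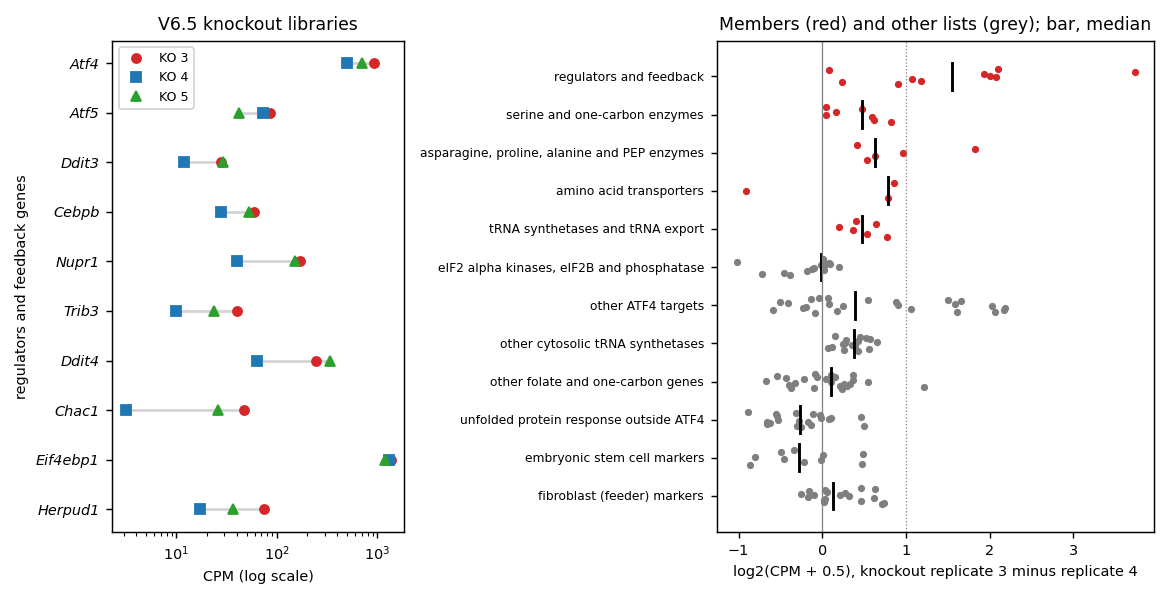
Left, CPM of the 10 regulators and feedback genes in the 3 V6.5 knockout libraries (log scale). Right, log2(CPM + 0.5) of knockout replicate 3 minus replicate 4 for the tested genes (red, by role) and for other lists (grey), with medians as bars and 2-fold as the dotted line; regulators have a median of 1.56.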

How the data were processed

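The authors deposited 1 table of raw counts per gene symbol for the 9 poly(A)+ libraries, made with MARS-seq2.0 per the labels' protocols. The submitters' processing notes name STAR, DESeq2 and mm10. How these were used, which annotation and counter were applied, and how strand and molecular identifiers were treated is not given in the sources at hand. Spike-in rows (92) were left out. Counts were analysed in edgeR 4.0.16 (R 4.3.3): filterByExpr (minimum count 10), TMM factors, robust quasi-likelihood F test, Benjamini-Hochberg adjustment over the 12645 tested genes. Terms were run and genotype, cell line and genotype, or 4 groups of genotype by run. Every p without another tool's name is from edgeR, and SEs come from the log2 value and its F statistic. CPM uses TMM-scaled totals, and 3 counts, the floor, equalled 0.412 to 1.18 CPM, covering counting error only. DESeq2 1.42.0 and limma 3.58.1 (voom) were alternatives. The scripts were tested on simulated data. Members and lists were chosen with earlier results of these data known. Values per library are given for Atf4, members past the threshold between lines and the 4 with the smallest p by genotype, and up to 3 called genes are named per list. Promoters are from RefSeq (GRCm38.p6) and gene positions from GENCODE M21 (GRCm38). No pair of libraries agreed within sampling noise (chi-square per degree of freedom 2.48 to 24.0 within a genotype and run). Some items are not reported here.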

Additional observations from a re-analysis of the deposited data

Results flagged for a closer look

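Among 124 groups tested (31 genes in wild-type, knockout, RGM and V6.5 libraries), 6 held a library set apart from the rest by more than Dixon's 95% critical value; chance gives about 1 in 20. Trib3 was at 42.0 CPM in wild-type replicate 3, the next wild-type library being at 21.9 CPM, and at 11.8 CPM in knockout replicate 2, the next RGM library being at 20.5 CPM. Knockout replicate 2 was also the highest RGM library for Psph (159 CPM, next 128) and Shmt1 (163 CPM, next 132). Asns was at 778 CPM in wild-type replicate 2, the next RGM library being at 719 CPM. Slc7a3 was at 573 CPM in knockout replicate 4, the next knockout library being at 304 CPM.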

How the results depend on the processing

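By genotype 0 of the 31 stress and serine genes passed under all 16 alternatives (0 of 32 without the low-count filter). Over all genes the 4 calls became 7 with DESeq2, 7 with limma voom, 35 without the filter, 2 without a run term, 2 with cell line in place of run and 2 to 4 with 1 library left out. The log2 fold change of Atf4, 0.01, turned to -0.01 without the filter, -0.06 without a run term and -0.09 with cell line in place of run, and ran from -0.12 to 0.11 with 1 library left out. With cell line in place of run, Psph moved from 0.35 to 0.53, Slc7a5 from 0.31 to 0.42, Nars from 0.25 to 0.35 and Pck2 from 0.34 to 0.32. Without knockout replicate 4, 4 of the 31 genes had an unadjusted p under 0.05 in edgeR, against 680 of 12405 genes. Same-numbered libraries of the 2 genotypes did not deviate together in every pair (r of -0.07, -0.07, 0.30 and 0.34), so the numbers were not read as pairs; with a replicate block 6 genes and 0 of the 31 were called, and Atf4 was at -0.01. No paired analysis was possible for the lines, because RGM and V6.5 libraries share no replicate number. Between lines the 12 calls among the 31 genes became 5 in knockout libraries only, 6 in wild-type libraries only (where RGM was set against V6.5 and Cas9-GFP together) and 4 to 17 with 1 library left out, the lowest without wild-type replicate 3 and the highest without knockout replicate 3. Over all genes the 5093 calls became 3160, 3081 and 2992 to 5594. Without knockout replicates 3 and 4 together, a setting chosen after seeing the data, 17 of the 31 passed (54.8%, all genes 42.8%), as did 17 with voom (54.8%, all genes 48.8%) and 17 of 32 without the filter (53.1%, all genes 29.2%). For the difference of the knockout effect 0 genes became 1 without the filter. The 12 genes named between lines kept their direction in all 18 alternatives, and 33 of 216 values no longer passed. Slc7a11, at 0 to 7 counts in each library, was tested only without the low-count filter.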
